A study of Mus musculus with 6 samples.

Results

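The 34 genes described here are Myc and 33 genes that act on ribosome assembly, most of them in the nucleolus. They were taken by symbol from a list of names, and all 34 were among the 17546 genes of the deposited table and passed the filter on low counts, which left 13325 genes for testing. The list was not chosen by a measured value of these libraries, but it was drawn up with results of these data known.

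The RNA came from ILC2s (group 2 innate lymphoid cells), which carry no antigen receptor and secrete the type 2 cytokines, taken from the lungs of BALB/c mice. All groups share the same conditioning: the mice received IL-33, a cytokine of damaged epithelium to which ILC2s respond, in 3 intranasal doses of 1 µg, and the cells were then kept in culture with 10 ng/mL of both IL-2 and IL-7. By the sample labels, the cells were exposed for 24 h to DMSO, the solvent, or to 10 µM Yoda1. Each group has 3 libraries, DMSO 1 to 3 and Yoda1 4 to 6. The deposited treatment column and the design text give PBS for the controls. If that holds, Yoda1 and its solvent cannot be told apart. Yoda1 is a chemical agonist of the stretch-gated calcium channel Piezo1, so the comparison asks how the transcripts of the ribosome assembly line stand after chemical opening of that channel. The labels state no genotype beyond the strain and no age.

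MYC is a transcription factor that, paired with MAX, binds E-box sequences and drives cell growth; genes for ribosome assembly are among its best known targets. Ribosomes are built in the nucleolus. RNA polymerase I makes a long precursor rRNA, small nucleolar ribonucleoproteins (snoRNPs) modify it, and the small subunit processome and the 60S assembly factors cut and fold it into the 40S and 60S subunits. When lymphocytes are activated they enlarge their nucleoli before they divide. The libraries measured the mRNAs of these factors, and rRNA was not analysed here.

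The E-box with the letters CACGTG, the form MYC and MAX bind best, reads the same on both strands and was looked for near the start of each gene, because it is the sequence through which MYC is known to act. RefSeq promoter windows on GRCm38.p6, 250 bases before to 50 bases after the start (300 bases), were matched for 28 of the 34 genes. Of these, 8 held a CACGTG (28.6%), against 12.1% of the tested genes with a window and 8.09% of all genes with a window. Each is shown 5′ to 3′ in the direction of its gene, with the E-box in capitals and up to 10 bases on each side within the window.
Imp4: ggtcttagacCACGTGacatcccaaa
Nop2: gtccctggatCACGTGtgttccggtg
Pes1: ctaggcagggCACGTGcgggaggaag
Wdr43: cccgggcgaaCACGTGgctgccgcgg
Tsr1: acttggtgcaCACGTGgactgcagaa
Grwd1: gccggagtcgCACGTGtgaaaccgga
Utp20: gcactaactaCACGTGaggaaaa
Mybbp1a: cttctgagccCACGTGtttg
In Imp4 (chr1:34439698-34439723, plus strand) and Nop2 (chr6:125131813-125131838, plus) the E-box began 121 and 60 bases before the start. In the other 6 it began after the start base, by 2 bases in Pes1 (chr11:3963967-3963992, plus) and by 17 in Wdr43 (chr17:71616222-71616247, plus). The distance was 24 bases in Tsr1 (chr11:74898094-74898119, plus) and 34 in Grwd1 (chr7:45830740-45830765, minus). It was 37 bases in Utp20 (chr10:88826765-88826787, minus) and 40 in Mybbp1a (chr11:72441357-72441376, plus), where the window ends soon after. A match of letters is a description and not a binding site.

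Neither Myc nor any of the ribosome assembly genes among the 34 showed a difference in transcript level that passed the test after Yoda1. Of the 34 genes 0 passed over all genes in either direction (quasi-likelihood test of edgeR, p adjusted by Benjamini-Hochberg, under 0.05). Of all tested genes 1.49% passed, 0.923% as lower and 0.57% as higher with Yoda1. By other tools, limma voom called 0 of the 34, against 2.25% of all genes, and DESeq2 called 2 (5.88%), Ncl and Nolc1, both lower, against 6.5% of all genes. Over all tested genes 123 were lower and 76 higher, a split that moved to 174 and 57 with upper quartile scaling. At an unadjusted p under 0.05 in edgeR, 5 of the 34 were lower with Yoda1 and 0 were higher. Those 5 are 14.7% of the genes; among all tested genes 14.5% met that mark, 7.11% as lower and 7.39% as higher. The 5 were Ncl, Nolc1, Tsr1, Nhp2 and Noc4l.

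The log2 changes of Yoda1 over DMSO were small and mostly below 0: 24 were negative and 10 positive, with a median of -0.18 and a range from -0.52 to 0.50. Over all tested genes 49% of the changes were negative and the median was 0.01. The groups did not overlap for 7 of the 34 genes (20.6%), against 22.6% of all genes tested. All 7 were lower with Yoda1, where 12% of all genes were lower without overlap. A miss of the threshold does not show equal levels, so the 95% interval of each change is the measure of what could be present. That interval lay within a 1.5-fold change in both directions for 19 genes and within a 2-fold change for 30. The intervals of the remaining 4, Polr1a, Polr1b, Utp20 and Rrp12, reached beyond 2-fold, so a difference of that size was not resolved for them.

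**Figure D1:**
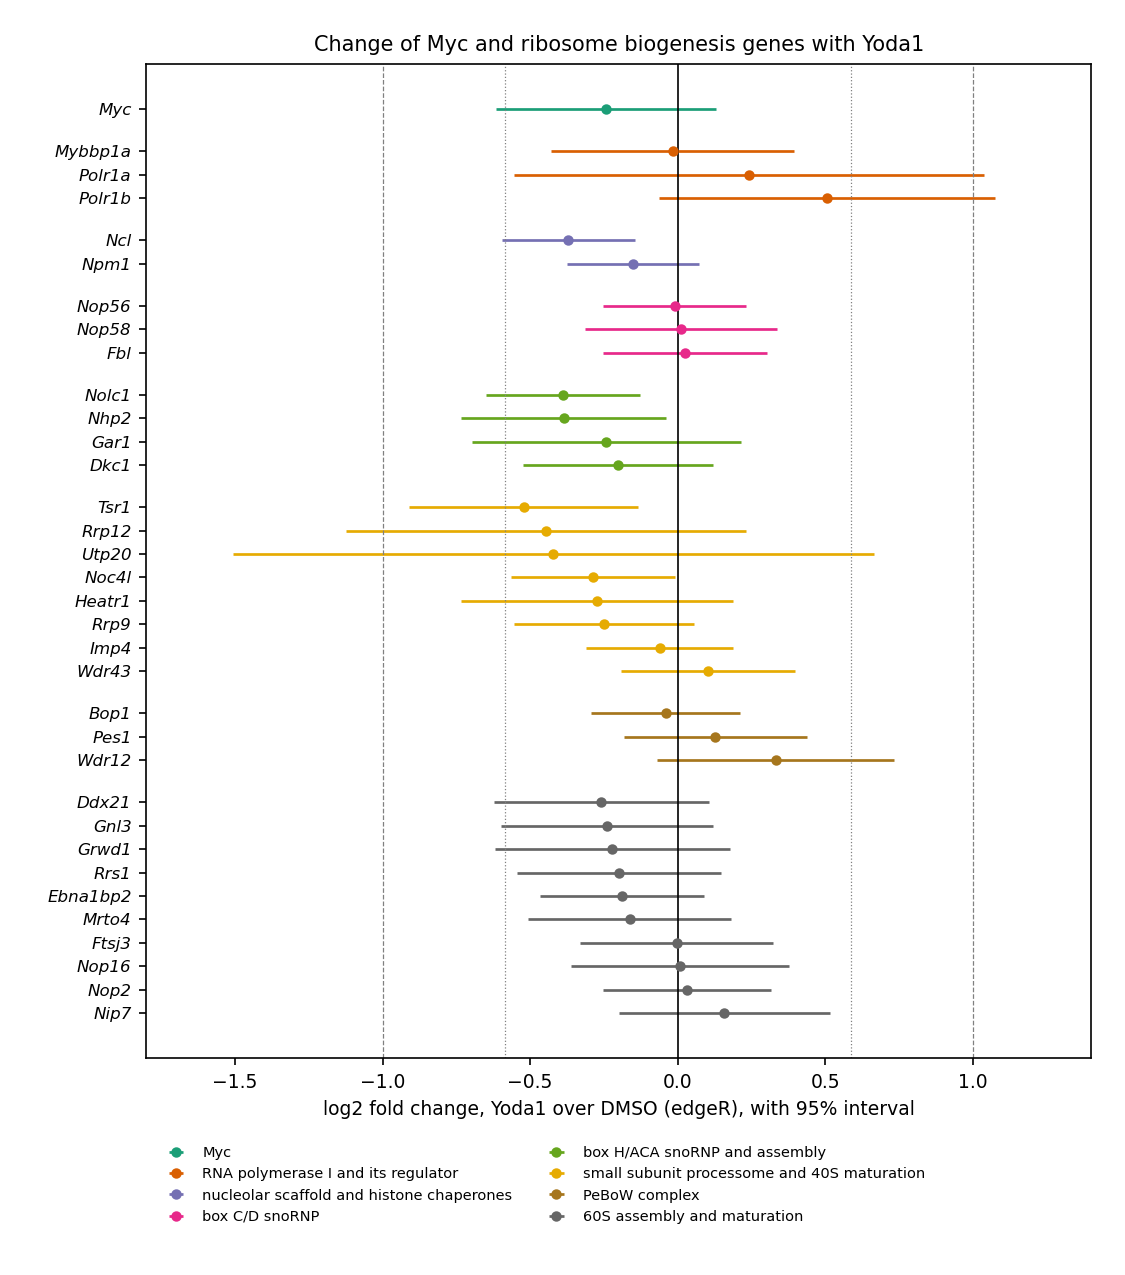
Log2 fold change of Yoda1 over DMSO for the 34 genes, grouped by role, with the edgeR estimate as a point and the 95% interval as a bar; dotted lines mark a 1.5-fold and dashed lines a 2-fold change. Of the intervals 29 include 0, and the other 5 lie wholly below 0.

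As a group the genes made up a slightly smaller part of each Yoda1 library. Levels are given in CPM (counts scaled to library size with TMM factors). The summed level of the 34 genes was 4189, 4421 and 4279 CPM in DMSO 1, 2 and 3, and 3982, 3876 and 3857 CPM in Yoda1 4, 5 and 6. Every Yoda1 library was below every DMSO library. Ncl has the highest CPM of the 34 and weighs on that sum; without it the sums were 3634, 3767 and 3630 CPM with DMSO and 3475, 3389 and 3414 CPM with Yoda1, again without overlap. In bulk RNA, less of these transcripts per cell and fewer cells that carry them cannot be told apart.

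Other facts of the libraries stand beside this. Total counts ran from 14214048 to 31627519 per library. Summed ILC2 markers (15 of 15 measured) ran from 11462 to 12125 CPM of all counts with DMSO and from 12333 to 13389 with Yoda1, although Thy1, a surface marker of these cells, was at 0.115 to 2.89 CPM. Il5, their main cytokine, made up the higher sum. Without it the other 14 summed to 6119, 6189 and 6160 CPM with DMSO. With Yoda1 they summed to 5829, 5398 and 5132 CPM, lower in every Yoda1 library. The 14 did not move together. Icos was at 850 to 875 CPM with DMSO and 434 to 509 with Yoda1, and Arg1 at 210 to 272 and 437 to 476. Among all 15 markers, Il5 included, the groups did not overlap for 11. Of these, 6 were lower with Yoda1 and 5 were higher. Epithelial markers (9 of 9 measured) summed to 91.6 to 428 CPM with DMSO and 55.2 to 76.1 with Yoda1. The club cell gene Scgb1a1 was at 302 and 293 CPM in DMSO 2 and DMSO 3 and at 0 to 0.0585 CPM elsewhere. Markers of NK cells and ILC1 (5 of 8 measured) summed to 155 to 211 CPM with DMSO and 44.3 to 62.0 with Yoda1, nearly all of it Gzma and Gzmb, with Tbx21 at 0 in 5 of 6 libraries. T cell markers (6 of 9 measured) summed to 304 to 361 and 315 to 457 CPM, with Trac at 0 in 4 libraries. Trbc1 and Trbc2 made up most of that sum. Over all libraries Cd3g was at 18.4 to 32.4, Cd3e at 0.346 to 2.67 and Cd3d at 0.115 to 1.55 CPM. B cell markers (2 of 5) summed to 26.1 to 41.3 and 28.7 to 37.6, macrophage and monocyte markers (6 of 8) to 177 to 214 and 176 to 208. Most of the latter sum was Ccr2, at 152 to 201 CPM over all libraries, and Adgre1 was at 0 in the 3 Yoda1 libraries. Neutrophil, eosinophil and mast cell markers (4 of 10) summed to 5.00 to 7.18 and 3.98 to 8.53, endothelial and stromal markers (1 of 6) to 20.2 to 34.3 and 20.0 to 28.4, and red cell globin genes (2 of 4) to 6.33 to 8.72 and 10.0 to 19.1. The part of these other transcripts in the differences of the 34 genes was not tested. With DMSO 1 alone as control, a fit added after seeing the data in which that lone library is assumed to vary like the Yoda1 libraries, the median change was -0.09. With 1 control library that fit cannot decide which of the 34 genes differ, so only the size of the change is given here.

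Myc itself, on chromosome 15 at 61985391 to 61990374 (GRCm38), was at 105, 90.0 and 95.7 CPM in DMSO 1, 2 and 3. It was at 81.8, 97.5 and 66.2 CPM in Yoda1 4, 5 and 6. Yoda1 5 lay inside the DMSO range and the other Yoda1 libraries below it. The log2 difference came to -0.24 (SE 0.16, 95% interval -0.62 to 0.13, edgeR with Benjamini-Hochberg adjustment, adjusted p = 0.55, n = 3 per group). Single libraries moved it by more than 1.5 times: it was -0.11 without Yoda1 6 and -0.39 without Yoda1 5.

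The genes that work with MYC were described by a list of 24 MAX partners and MYC regulators, all of them measured. Of these 1 fell and 23 did not pass in edgeR, where 0.923% of all tested genes passed as lower. The median change was -0.03. At an unadjusted p under 0.05, 3 were lower and 3 higher, 25% of the list against 14.5% of all genes. The one that fell was Aurka, a kinase best known for building the mitotic spindle that also binds MYC family proteins. It was at 202, 233 and 256 CPM with DMSO and 97.4, 147 and 124 CPM with Yoda1. Its log2 change came to -0.91 (SE 0.17, edgeR with Benjamini-Hochberg adjustment, adjusted p = 0.039). The call did not hold when any library was left out, with adjusted p from 0.062 without Yoda1 4 to 0.192 without DMSO 3.

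Among MYC targets outside the nucleolus, Slc3a2 and Srm fell. Of 44 tested genes of metabolism, chaperones and transport that MYC is known to induce, 2 fell, 0 rose and 42 did not pass. Over all tested genes 0.923% passed as lower (edgeR). In the list 34 genes had negative changes, and the median was -0.19. At an unadjusted p under 0.05 (edgeR), 15 were lower and 0 higher. The 15 are 34.1% of the list, against 7.11% of all genes lower. Slc3a2, the heavy chain of the large neutral amino acid transporter, was at 1032, 1003 and 1012 CPM with DMSO and 666, 679 and 648 CPM with Yoda1. Its log2 difference came to -0.61 (SE 0.07, edgeR with Benjamini-Hochberg adjustment, adjusted p = 0.0071). Srm, spermidine synthase, was at 130, 133 and 135 CPM with DMSO and 89.8, 89.3 and 88.4 CPM with Yoda1. Its log2 change came to -0.57 (SE 0.11, adjusted p = 0.045 in the same test). For both genes the libraries of a group lay close together and the groups far apart. The Slc3a2 call was lost without DMSO 1, 2 or 3 (adjusted p = 0.051, 0.066 and 0.072). It was also lost with libraries of a shared label number summed (0.168) and with the label suffix as a term (0.195). The Srm call was lost without any 1 library, at 0.056 without Yoda1 6 to 0.206 without DMSO 2.

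Of 13 tested genes listed here as repressed by MYC, 1 rose, 0 fell and 12 did not pass, with a median of -0.11. Over all tested genes 0.57% passed as higher (edgeR). At an unadjusted p under 0.05 (edgeR), 2 were higher and 2 lower, 30.8% of the list against 14.5% of all genes. The higher were Btg2 and Ndrg1 (0.60), and the lower were Id2 (-0.32) and Txnip (-0.37). Id2 is also in the list of ILC2 markers. Repression by MYC in these cells was not tested for any gene of the list, Id2 among them. Btg2, which slows the cell cycle, was at 80.2, 78.0 and 81.5 CPM with DMSO and 113, 124 and 121 CPM with Yoda1. Its log2 difference came to 0.58 (SE 0.11, edgeR with Benjamini-Hochberg adjustment, adjusted p = 0.049), a call lost without any 1 library (0.064 without Yoda1 6 to 0.239 without DMSO 2).

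The 3 genes of RNA polymerase I and its regulator had a median change of 0.24, and 0 of them passed. Polr1b, the second largest subunit, on chromosome 2 at 129100995 to 129126594, was at 18.4, 26.4 and 26.2 CPM in the DMSO libraries. It was at 38.7, 24.6 and 37.7 CPM in Yoda1 4, 5 and 6. Yoda1 5 lay within the DMSO range and the other Yoda1 libraries above it. With DMSO 1 alone as control the change was 0.86. The log2 change of 0.50 (SE 0.25, interval -0.06 to 1.07) did not pass the threshold (edgeR with Benjamini-Hochberg adjustment, adjusted p = 0.40).

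Polr1a, the largest subunit, had the change 0.24 (SE 0.35) and an uneven set of Yoda1 libraries. It was at 33.5, 33.5 and 43.1 CPM with DMSO and at 66.9, 40.7 and 22.3 CPM with Yoda1 4, 5 and 6. The Yoda1 libraries thus spread 3.00-fold from lowest to highest, on both sides of the DMSO range, while the DMSO libraries spread 1.29-fold. Its counts were at least 374 in every library, for which counting error alone gives a relative error of 5.17%. Mybbp1a, a nucleolar protein that restrains polymerase I and processes rRNA, had a change of -0.02 (SE 0.18).

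Of the 13 other tested genes of the polymerase I machinery, 0 passed in edgeR, and at an unadjusted p under 0.05 1 was higher and 0 were lower. Their median was 0.13, with 10 positive and 3 negative changes. Ubtf, the factor that keeps rRNA genes open, was at 133, 144 and 135 CPM with DMSO and 219, 199 and 142 CPM with Yoda1. Its change came to 0.44 (SE 0.16, adjusted p = 0.25). Without Yoda1 6, the lowest of the 3, Ubtf passed in edgeR (0.61, adjusted p = 0.036). Taf1b, of the promoter selectivity factor, had a change of 0.42 (SE 0.21, adjusted p = 0.40, both by edgeR with Benjamini-Hochberg adjustment). The Taf1b change was 0.16 with the label suffix as a term and 0.63 with DMSO 1 alone as control. Among 21 RNA polymerase III genes, which make 5S rRNA and tRNA, Maf1 rose, 0 fell and 20 did not pass. Over all tested genes 0.57% passed as higher. Maf1, the repressor of polymerase III, was at 187, 178 and 192 CPM with DMSO and 242, 282 and 278 CPM with Yoda1 (log2 change 0.53, SE 0.10, edgeR with Benjamini-Hochberg adjustment, adjusted p = 0.049). The Maf1 call held without Yoda1 4 (adjusted p = 0.042) and was lost without any other single library (0.066 without Yoda1 6 to 0.244 without DMSO 2).

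**Figure D2:**
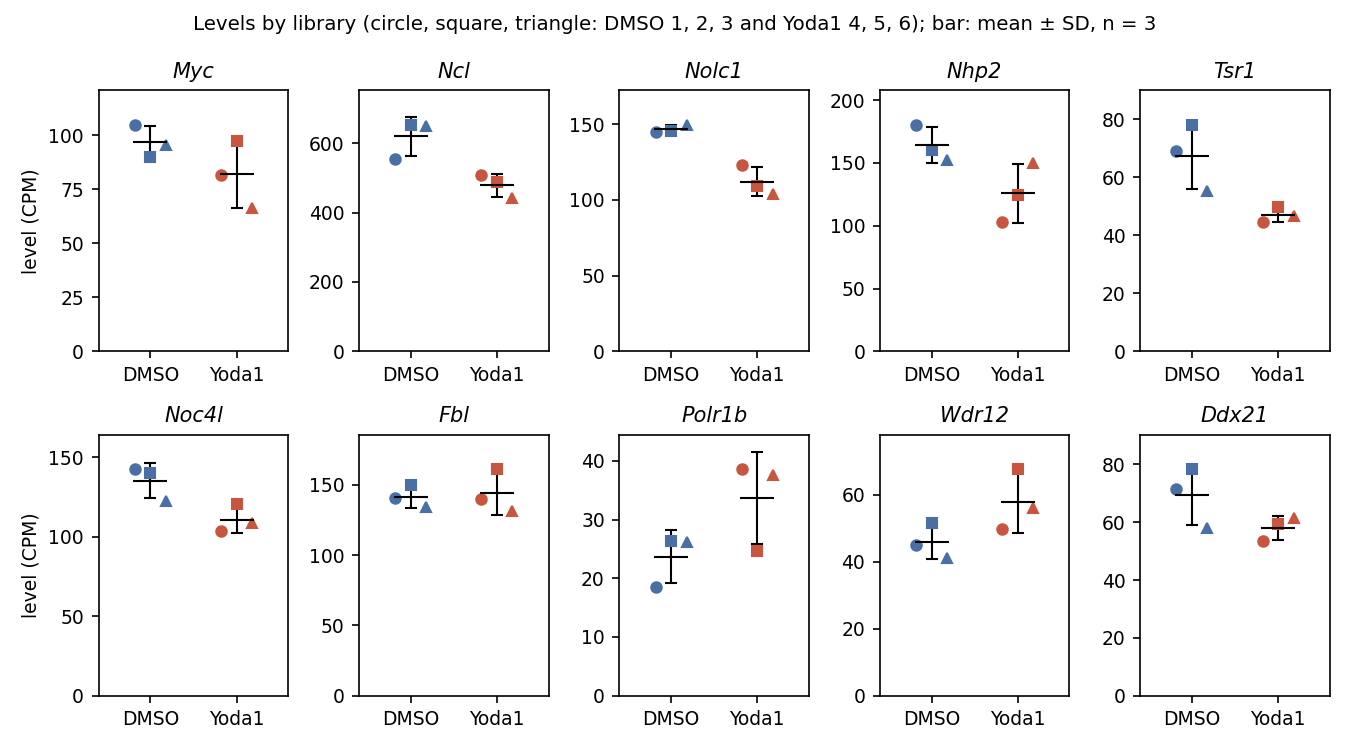
Level in CPM (linear axis from 0) by library for Myc, the 5 genes with an unadjusted p under 0.05 and the gene with the smallest p in the other role groups; the bar is the mean ± SD of 3 libraries. Ncl, Nolc1, Nhp2, Tsr1 and Noc4l show no overlap between groups, while Myc, Fbl, Polr1b, Wdr12 and Ddx21 do overlap.

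Nucleolin, encoded by Ncl, coats nascent rRNA and had the smallest p of the 34. The gene lies on chromosome 1 at 86344719 to 86359400. DMSO 1, 2 and 3 held 555, 654 and 649 CPM of it, and Yoda1 4, 5 and 6 held 507, 487 and 443 CPM. All Yoda1 libraries were lower than all DMSO libraries, with DMSO 1 the nearest to them. The log2 difference came to -0.37 (SE 0.10, interval -0.59 to -0.15, edgeR with Benjamini-Hochberg adjustment, adjusted p = 0.12). DESeq2 called it lower (adjusted p = 0.012), as did edgeR with only genes of at least 10 CPM in 3 libraries (adjusted p = 0.039), a fit that called 5.26% of its genes; over the alternatives its adjusted p ran from 0.012 to 0.910. Without DMSO 2 and DMSO 3 the change was -0.22. Npm1, which encodes nucleophosmin, a chaperone that shuttles ribosomal particles and has processed pseudogenes elsewhere in the genome, was at 242 ± 10 and 218 ± 14 CPM (mean ± SD, n = 3). Its groups did not overlap, and its change was -0.15 (SE 0.10).

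The box C/D snoRNP methylates rRNA, and the 3 of its core proteins among the 34 genes had changes between -0.01 and 0.02. Fbl, the methyltransferase fibrillarin, on chromosome 7 at 28169710 to 28179269, was at 141, 150 and 134 CPM with DMSO and at 140, 161 and 131 CPM with Yoda1. The groups overlapped throughout, and the log2 difference came to 0.02 (SE 0.12, interval -0.25 to 0.30, edgeR with Benjamini-Hochberg adjustment, adjusted p = 0.96). Its sign turned under some alternatives, to -0.06 at the lowest. The scaffold proteins Nop56 and Nop58 had changes of -0.01 (SE 0.11) and 0.01 (SE 0.14). The 3 intervals lay within a 1.5-fold change. Snu13, the other core protein, which is in the list of other ribosome assembly genes and was chosen after its values were seen, was at 243, 229 and 237 CPM with DMSO and 203, 208 and 217 CPM with Yoda1. Its groups did not overlap, and its change of -0.17 (SE 0.09) did not pass (edgeR with Benjamini-Hochberg adjustment, adjusted p = 0.44).

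The box H/ACA snoRNP turns uridines of rRNA into pseudouridines. Among the 34 genes it has 3 core proteins, Dkc1, Gar1 and Nhp2, and the assembly chaperone Nolc1, and these 4 had negative changes with a median of -0.31. Its other core protein, Nop10, had a change of 0.05 (SE 0.13), and the assembly factors Shq1 and Naf1 had changes of 0.24 (SE 0.31) and 0.21 (SE 0.57), so not all genes of the particle had the same sign; these 3 belong to the list of other ribosome assembly genes and were chosen after their values were seen. Nolc1, a chaperone that assembles snoRNPs, on chromosome 19 at 46075863 to 46085530, was at 145, 145 and 150 CPM with DMSO. It was at 123, 109 and 104 CPM in Yoda1 4, 5 and 6, so the groups stood apart. The DMSO libraries spread only 1.03-fold, and the log2 difference came to -0.39 (SE 0.11, interval -0.65 to -0.13, edgeR with Benjamini-Hochberg adjustment, adjusted p = 0.15). DESeq2 called Nolc1 lower (adjusted p = 0.020, with a range from 0.020 to 0.910 over the alternatives). Nhp2, a core protein of the particle that telomerase shares, was at 181, 160 and 152 CPM with DMSO and at 103, 125 and 150 CPM with Yoda1. Yoda1 6 came close to DMSO 3 without overlap. The change was -0.39 (SE 0.15), and it did not pass the threshold (edgeR with Benjamini-Hochberg adjustment, adjusted p = 0.29). The pseudouridine synthase gene Dkc1 and its partner Gar1 had changes of -0.20 (SE 0.14) and -0.24 (SE 0.20), with overlap between groups.

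Of the 8 genes for the small subunit processome and 40S maturation, 7 had negative changes and the median was -0.28. Tsr1, which acts late on the 40S subunit in the cytoplasm, had the lowest change of all 34. The gene lies on chromosome 11 at 74898071 to 74909342, and its level was 69.2, 78.2 and 55.1 CPM with DMSO and 44.7, 49.9 and 46.7 CPM with Yoda1. The Yoda1 libraries lay close together and below all DMSO libraries, which spread more. The change was -0.52 (SE 0.17, interval -0.91 to -0.13, edgeR with Benjamini-Hochberg adjustment, adjusted p = 0.20). The change was -0.23 with the label suffix as a term and -0.66 without DMSO 3, and none of the 17 alternatives called Tsr1 (adjusted p from 0.052 to 0.855).

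Noc4l, a partner of the processome in 40S export, was at 143, 140 and 122 CPM with DMSO and 103, 120 and 109 CPM with Yoda1. Yoda1 5 came close to DMSO 3 without overlap, and the change was -0.29 (SE 0.12, edgeR with Benjamini-Hochberg adjustment, adjusted p = 0.33). With the label suffix as a term the change was -0.14. Rrp9, which binds U3 snoRNA, had a change of -0.25 (SE 0.13), Imp4, another U3 protein, -0.06 (SE 0.11), and Heatr1, which loads on the 5′ part of the precursor, -0.27 (SE 0.20). Wdr43, of the same early complex, was the one with a positive change, 0.10 (SE 0.13).

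The least certain values of this group belong to Utp20 and Rrp12. Utp20, a very large scaffold protein, was at 19.6, 14.04 and 21.2 CPM with DMSO and 24.8, 5.83 and 10.3 CPM with Yoda1. Yoda1 4 was the highest and Yoda1 5 the lowest of the 6 libraries, a 4.25-fold spread within the group, and the change was -0.42 (SE 0.48, interval -1.51 to 0.66). Its lowest count was 101, which gives a counting error of 9.95%. Rrp12, an export factor, was at 33.1, 62.3 and 28.4 CPM with DMSO, where DMSO 2 stood high, and at 33.0, 26.1 and 31.9 CPM with Yoda1. Its change was -0.45 (SE 0.30).

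The PeBoW complex, a trio that matures the rRNA of the large subunit, had changes on both sides of 0. Wdr12, on chromosome 1 at 60069785 to 60098645, was at 45.1, 51.5 and 41.2 CPM with DMSO and 49.8, 67.8 and 56.0 CPM with Yoda1. Yoda1 4 lay below DMSO 2, so the groups overlapped, and the change of 0.33 (SE 0.18, interval -0.07 to 0.73) did not pass the threshold (edgeR with Benjamini-Hochberg adjustment, adjusted p = 0.44). Without Yoda1 5 it was 0.20. Pes1 and Bop1 had changes of 0.13 (SE 0.14) and -0.04 (SE 0.11). None of the 3 passed in edgeR, DESeq2 or voom.

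The 10 genes of 60S assembly had a median change of -0.18, with 7 negative and 3 positive changes and none past an unadjusted p of 0.05 in edgeR. Ddx21, an RNA helicase that works at rRNA genes and on the precursor, lies on chromosome 10 at 62580251 to 62602281. It was at 71.6, 78.5 and 58.1 CPM with DMSO and 53.4, 59.2 and 61.5 CPM with Yoda1. The groups overlapped through DMSO 3, and the change, which was -0.0012 with the label suffix as a term, was -0.26 (SE 0.16, interval -0.62 to 0.11, edgeR with Benjamini-Hochberg adjustment, adjusted p = 0.51). Gnl3, nucleostemin, a GTPase of proliferating cells, was at 58.5 ± 5.8 and 49.5 ± 4.7 CPM without overlap, a change of -0.24 (SE 0.16). Grwd1, a chaperone of a ribosomal protein, had a change of -0.22 (SE 0.18), Rrs1, which brings in the 5S particle, -0.20 (SE 0.15), Ebna1bp2 -0.19 (SE 0.12) and Mrto4 -0.16 (SE 0.15). The rRNA methyltransferase genes Nop2 and Ftsj3 had changes of 0.03 (SE 0.12) and 0.00 (SE 0.14), Nop16 0.01 (SE 0.16), and Nip7, an early 60S factor, 0.16 (SE 0.16).

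**Figure D3:**
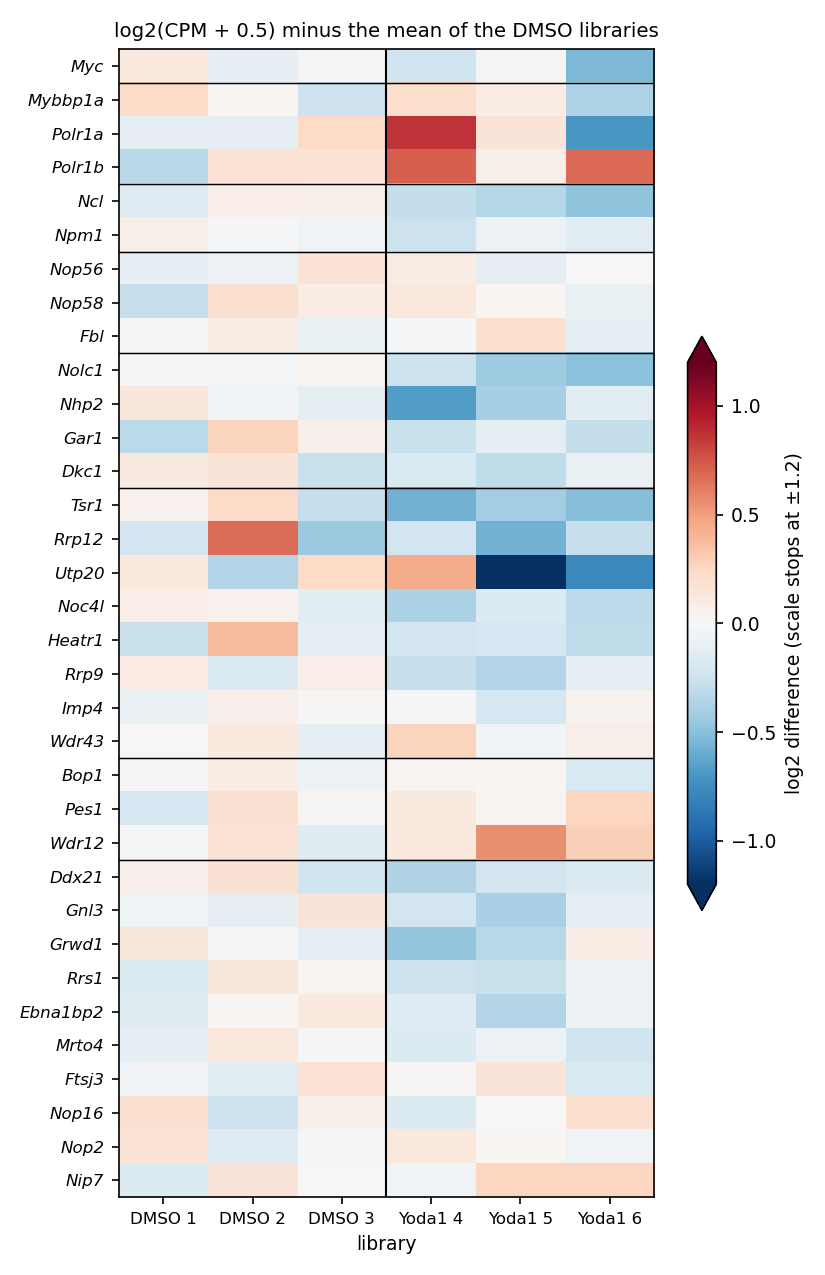
Difference of each library from the mean of the 3 DMSO libraries on the log2(CPM + 0.5) scale for the 34 genes, in the order of roles used in the plot of intervals; the vertical line parts the groups. The Yoda1 columns of Polr1a and Utp20 differ from each other in direction, and those of Ncl, Nolc1 and Tsr1 are all below 0.

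Per kb of coding sequence, Utp20 stood last in every library and Nhp2 first in all but Yoda1 4. Levels per kb of coding sequence (GENCODE M21, UTRs not counted in the length) allow only a rough comparison between genes. The counts may hold reads of UTRs, so the order can depend on the length left out. Nhp2 has only 459 coding bases, and a coding gene on the other strand overlaps it. With DMSO the highest were Nhp2 at 358 ± 32, Ncl at 292 ± 26 and Npm1 at 276 ± 12 CPM per coding kb (mean ± SD, n = 3). Ncl and Npm1 did not differ beyond their spread. With Yoda1 Nhp2 stood at 274 ± 51, Npm1 at 249 ± 16, Imp4 at 226 ± 21 and Ncl at 226 ± 16. The ranges of mean ± SD of these 4 overlapped, and in Yoda1 4 Ncl, Imp4 and Npm1, at 239, 232 and 232, stood above Nhp2 at 225. By the means Ncl was the second in order with DMSO and the fourth with Yoda1. The lowest with DMSO were Polr1a at 7.12 ± 1.08, Polr1b at 6.96 ± 1.34 and Utp20 at 2.18 ± 0.45, and the first 2 of these did not differ beyond their spread. Myc, at 71.1 ± 5.5 and 60.1 ± 11.5, was the 16th and the 18th.

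Libraries of 1 group lay close together for most of these genes. The SD of log2(CPM + 0.5) was larger among the Yoda1 libraries for 17 of the 34 genes (50%) and for 63.1% of all tested genes. The median SD over the 34 was 0.16 with DMSO and 0.13 with Yoda1, against 0.23 and 0.30 over all tested genes. A low SD with DMSO was not particular to these genes. The medians with DMSO and Yoda1 were 0.15 and 0.19 for the other ribosome assembly genes. They were 0.09 and 0.16 for the MYC-induced genes outside the nucleolus, and 0.10 and 0.26 for the cytosolic ribosomal protein genes. The exceptions among the 34 were Utp20, with an SD of 0.31 and 1.01, Polr1a, with 0.21 and 0.78, and in the other direction Rrp12, with 0.59 and 0.18.

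The other genes of ribosome assembly had mostly positive changes. Of 115 named, 111 were tested, and of these 1 rose, 0 fell and 110 did not pass in edgeR. Over all tested genes 0.57% passed as higher. In the list 68 genes had positive changes and 43 negative, with a median of 0.08. DESeq2 called 1 of them lower and 5 higher, 5.41% of the list against 6.5% of all genes. In edgeR 12 higher and 3 lower were past an unadjusted p of 0.05, which is 13.5% of the list against 14.5% of all genes. The gene that rose was Las1l, part of the nuclease complex that cuts the spacer between the rRNAs of the large subunit. It was at 123, 150 and 149 CPM with DMSO and 237, 235 and 214 CPM with Yoda1. Its log2 change came to 0.70 (SE 0.12, edgeR with Benjamini-Hochberg adjustment, adjusted p = 0.030). The call held without Yoda1 6 (0.031) and was lost without any other single library (0.067 without Yoda1 4 to 0.146 without DMSO 3). The median of the 34 genes was below 0 and that of this list above 0 in each of the 17 alternatives. The difference between the lists was not tested, and the 111 genes were listed with earlier results of these data known. The 81 cytosolic ribosomal protein genes, the products that the assembly line joins to rRNA, had a median change of -0.01. In edgeR 0 passed. The unadjusted p was under 0.05 for 5 of them, all lower. These are 6.17% of the list, against 14.5% of all genes in either direction and 7.11% as lower.

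**Figure D4:**
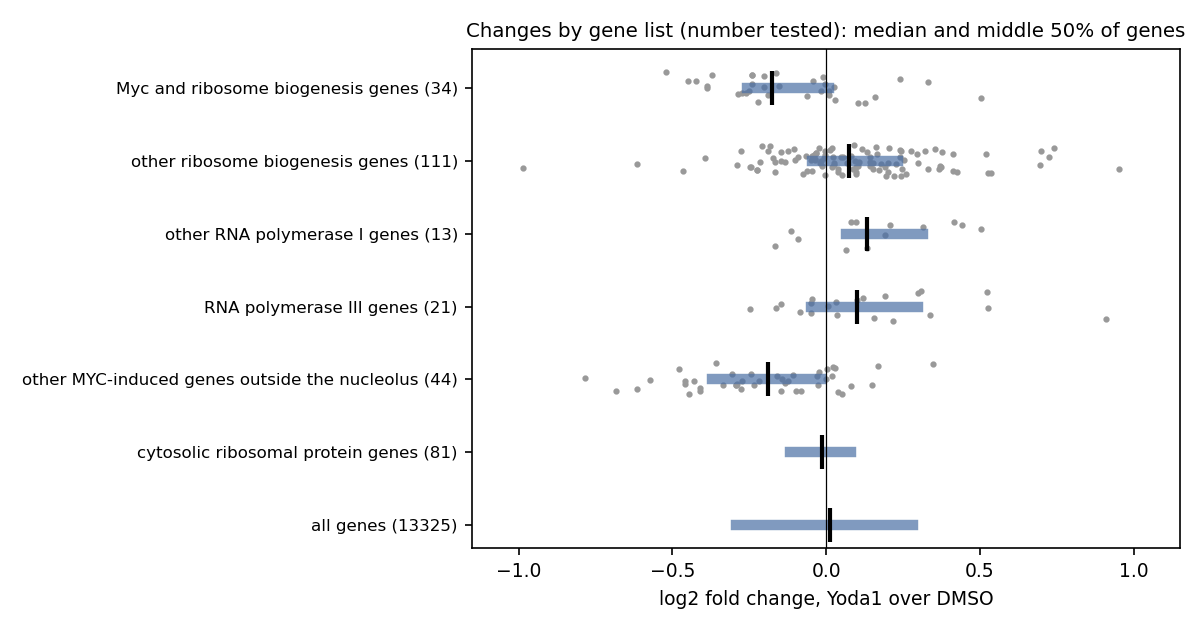
Log2 fold change of Yoda1 over DMSO by gene list, with 1 grey point per gene, the blue bar for the middle 50% of genes and the black mark for the median; the lists of ribosomal proteins and of all genes are drawn without points. The medians are -0.18 for the 34 genes, 0.08 for the other ribosome assembly genes, 0.13 for the other polymerase I genes, 0.10 for polymerase III genes, -0.19 for the MYC-induced genes outside the nucleolus, -0.01 for ribosomal proteins and 0.01 for all genes.

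When ribosome assembly is blocked, free ribosomal proteins hold the p53 inhibitor MDM2, and p53 targets are the usual readout. Of 21 tested p53 targets 0 passed in edgeR and the median was -0.03. An unadjusted p under 0.05 was found for 3 (14.3%, against 14.5% of all genes), of which 2 were higher. The lower one, Gtse1, was at 134, 117 and 140 CPM with DMSO and 104, 96.0 and 97.1 CPM with Yoda1. Its log2 change was -0.40 (SE 0.12, edgeR with Benjamini-Hochberg adjustment, adjusted p = 0.17). The 2 higher were Perp and Sesn1. Perp, a membrane protein gene, was at 2.37, 1.77 and 4.67 CPM with DMSO and 7.74, 9.46 and 12.8 CPM with Yoda1 (log2 change 1.78, SE 0.45, adjusted p = 0.10). Sesn1, a sestrin that restrains mTORC1, was at 44.0, 33.1 and 39.3 CPM with DMSO and 72.7, 51.0 and 59.4 CPM with Yoda1. Its change came to 0.65 (SE 0.19, adjusted p = 0.15, both by edgeR with Benjamini-Hochberg adjustment). Other tools called both or 1 of them: DESeq2 called Perp (adjusted p = 0.0090) and Sesn1 (0.021), and limma voom called Perp (0.049). The change of Perp was 1.10 with the label suffix as a term. Of 12 genes of mTORC1 and S6 kinase, the growth pathway that feeds ribosome assembly, 0 passed and 0 were past an unadjusted p of 0.05 in edgeR, with a median of 0.04. The smallest p in that list belonged to Akt1s1, with a change of 0.46 (SE 0.27), and Eif4ebp1, with -0.25 (SE 0.16). Single libraries moved both: Akt1s1 was at 0.69 without DMSO 2, and Eif4ebp1 at -0.13 without Yoda1 4 and -0.43 without Yoda1 6. With the label suffix as a term Akt1s1 was at 0.75.

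Changes overlapped between genes with and without the E-box. The 8 genes with a CACGTG near the start had changes from -0.52 (Tsr1) to 0.13 (Pes1), with a median of -0.04. The 20 genes with a window and without those letters ran from -0.39 (Nolc1) to 0.50 (Polr1b), with a median of -0.20. The same letters were present for 39% of the MYC-induced genes outside the nucleolus with a window and for 19.1% of the other ribosome assembly genes.

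Some genes of the list also carry snoRNA genes inside them on the same strand, so 1 transcript can give both an assembly protein and a guide RNA. GENCODE M21 places 21 snoRNAs within 7 of the 34 genes: 5 in Nop56, 4 in Nop58, 3 each in Ncl, Wdr43 and Gnl3, 2 in Tsr1 and 1 in Dkc1. The levels of these snoRNAs were not analysed here. For 11 of the 34 genes a protein-coding gene on the other strand overlaps, among them Tsr1, Nhp2, Nop56 and Wdr12; the sources used here do not give whether the counting used strand, and without it reads of the pair cannot be told apart.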

How the data were processed

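Bulk RNA-seq of 6 ILC2 libraries was analysed. The values deposited by the authors are expected counts, estimated reads per gene that need not be whole and are not scaled; per the file's name Partek software was used and per the submitters' processing notes the build was mm10. The sources used here do not give the aligner, counting method, strand setting or annotation. Sample labels say DMSO where the deposited table's treatment column and the design text say PBS; the sample labels were followed. Label number 19 is shared by DMSO 2 and DMSO 3, and 21 by Yoda1 4 and Yoda1 5, so some libraries may come from 1 sample. The labels of DMSO 1 and DMSO 2 end in the suffix S0, those of DMSO 3 and the Yoda1 libraries in S45 to S48. What the suffix stands for is not stated. The label suffix as a term (S0 or not) sets DMSO 1 and DMSO 2 apart, so the change then rests on DMSO 3 against the Yoda1 libraries. Suffix and treatment are thus partly confounded. Nothing states that libraries came from separate mice or cultures, so a p-value reflects only how far these libraries spread, and that spread may be technical. No 2 libraries of a group agreed within sampling noise (chi-square per degree of freedom 18.1 or more).

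Counts were rounded and tested over the whole table with edgeR 4.0.16 in R 4.3.3: TMM factors, filterByExpr (minimum count 10, total 15), glmQLFit and glmQLFTest, 2-sided, Benjamini-Hochberg adjustment, threshold 0.05. The SE is the change divided by the square root of F; the 95% interval uses the test's degrees of freedom. A count of 0 allows up to 0.0949 to 0.211 CPM (3 counts; counting error only). Marker levels are CPM of all counts. The code was tested on simulated data. Positions come from GENCODE M21 (GRCm38, also called mm10). Promoter sequences are RefSeq's.

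The 34 genes and the other lists were chosen with earlier results of these data known. By rule the text names Myc, the gene with the smallest p in each role group, and of the other lists up to 5 genes past the threshold or 2 where none passed. Other names, and the list of ribosomal proteins taken by symbol, were chosen after their values were seen. The alternatives used DESeq2 1.42.0, voom of limma 3.58.1 (also with label numbers as random effects), other scalings and filters, the label suffix as a term, sums of libraries with a shared label number, and fits that leave out 1 library; DMSO 1 alone as control was added after seeing the data.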

Additional observations from a re-analysis of the deposited data

How the results depend on the processing

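No paired analysis was possible because the DMSO libraries are numbered 1 to 3 and the Yoda1 libraries 4 to 6, so no number is shared. Over 17 alternatives, none called any of the 34 genes higher. Called lower were 2 with DESeq2 (Ncl and Nolc1) and 1 with the filter of 10 CPM in 3 libraries (Ncl), and 0 in the other 15. The median change of the 34 genes was -0.18, and moved to -0.23 with upper quartile scaling, -0.10 with the label suffix as a term, -0.18 to -0.10 with each library left out and -0.0946 with DMSO 1 alone. Myc stayed negative and uncalled in all 17. The change of Fbl turned to -0.0300 with upper quartile scaling, -0.0107 with the filter of 10 CPM and -0.0244 with summed libraries, and ran from -0.0642 to 0.0874 with each library left out. Over all genes 199 passed; DESeq2 called 866, voom 300, voom with label numbers as random effects 364, and the filter of 10 CPM 448. The label suffix as a term left 3, summed libraries 1, leaving out each library 9 (DMSO 3) to 220 (Yoda1 6), with 34 without DMSO 1, 22 without DMSO 2 and 34 without Yoda1 5, and DMSO 1 alone 0. Of the other ribosome assembly genes 1 passed; DESeq2 called 6 and the filter of 10 CPM 2, while the label suffix, summed libraries and DMSO 1 alone gave 0, and leaving out each library 0 to 1. The fits without Yoda1 4 and without Yoda1 6, also of 1 library fewer, gave 147 and 220 calls over all genes. The reason for the few calls under the other settings was not tested. The calls of Las1l, Maf1, Aurka, Slc3a2, Srm and Btg2 held in 9, 7, 7, 11, 7 and 5 of the 17 alternatives. All 6 were lost with the label suffix as a term, with summed libraries and with DMSO 1 alone. Each of the 34 genes had at least 101 counts in every library, so counting error was at most 9.95%.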

Other observations

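The U3 snoRNA, which pairs with the precursor rRNA and anchors the small subunit processome, appears in the table through near-identical gene copies whose reads may be split. For Rnu3b4 the DMSO libraries gave 1.75, 1.154 and 1.83 CPM and the Yoda1 libraries 1.302, 3.48 and 6.72 CPM. For Rnu3b3 the values were 0.193, 1.154 and 0.0025 CPM with DMSO and 1.302, 0.509 and 1.18 CPM with Yoda1. The groups overlapped for both, and levels this low rest on few counts. Gas5, a noncoding host gene of snoRNAs, stood at 74.3, 58.2 and 68.5 CPM with DMSO and 74.9, 81.7 and 66.9 CPM with Yoda1, and its difference did not pass (edgeR with Benjamini-Hochberg adjustment, adjusted p = 0.68). These CPM are of all counts. Dhx33, a helicase of rRNA transcription, and Riok2, a kinase of the late 40S subunit, had the lowest and highest changes among the other ribosome assembly genes, -0.99 (SE 0.29) and 0.95 (SE 0.28), and neither passed over all genes. These genes were chosen after their values were seen.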
